A study of Mus musculus with 3 samples.

Results

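The genes described here are 47 interferon-stimulated and MHC class I genes, chosen by symbol from 32285 features, of which 23059 had at least 1 read with a unique molecular identifier (UMI). They were read in 3 droplet 3′ single-cell libraries of mouse small intestine, duodenum excluded. Each library pooled tissue from 4 wild-type C57Bl/6 females of 9 to 10 weeks, so single animals cannot be told apart. The tissue was stripped of epithelium with EDTA and DTT, digested with Liberase TL and DNase I, and live cells were sorted as CD45-, CD31+ and PDPN+ in an enrichment mode. All 3 libraries form 1 group with no treatment, so every comparison below is between cells of the same libraries. Because the labels do not say whether the 3 pools held different litters or were handled on separate days, the p-values measure the spread between these 3 pools only.

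Interferons act through 2 receptor families on most cells. Type I interferons bind IFNAR1 and IFNAR2 and act through STAT2 and IRF9 to induce antiviral genes such as the Ifit family, Rsad2 and Isg15. Type II interferon, IFN-gamma, made mainly by lymphocytes, binds IFNGR1 and IFNGR2 and induces Irf1, the guanylate-binding proteins (Gbp), the immunity-related GTPases (Iigp1, Igtp, Irgm1, Irgm2) and the antigen-processing genes that load peptides onto MHC class I. The responses overlap. Intestinal lymphatic endothelium drains fluid and cells from a tissue in constant contact with microbes.

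The members were described in 4 sets: 14 type I genes, 12 type II genes, 10 antigen-processing genes and 11 genes induced by either interferon or of mixed use. Cells were put in classes by raw UMI sums of a few gate genes, none of them a member. The lymphatic endothelial gate (LEC; Prox1 of at least 1 UMI and Lyve1 of at least 5) held 18535 of the 22534 cells kept, 5646, 4760 and 8129 by library. The blood endothelial gate (BEC; Plvap and Flt1) held 38, 74 and 39 cells, the T cell gate 20, 71 and 41, the epithelial gate 121, 397 and 107, and the fibroblast gate 47, 225 and 116. A gate is a cut on counts and is not a proof of type; the label names endothelial cells, and the cells of the other gates passed the sort too.

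Library totals ran from 58857545 to 74571090 UMIs, and the median kept cell had 6698 to 7979 UMIs by library. The second library stood apart in its makeup, with 71.0% of kept cells in the LEC gate against 88.8% and 85.9%, and 450 cells passing more than 1 gate. Pairs of libraries shared 13 to 30 barcodes. The LEC gate carried 4 of its 5 marker genes, at a summed 12930 to 15393 UMIs as CPM (the share of a class's UMIs, scaled to a fixed total), and the fifth, Mmrn1, had 0 UMIs in every gate. LEC transcripts were also read in the other gates: Ccl21a, an LEC chemokine, stood at 10545 CPM in LEC, 144 in BEC, 152 in T cells, 119 in fibroblasts and 78.5 in epithelium. In BEC the summed LEC markers were 257 to 292 CPM and the summed BEC markers 3627 to 5278 CPM. The BEC markers summed to 2266 to 2397 CPM in LEC. Of them, Cdh5, Emcn, Kdr and Cd300lg stood in BEC at 153%, 122%, 118% and 117% of their LEC level. Only Ly6c1, at 1553 CPM in BEC, set the gates far apart.

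The 47 members together made up 19261, 21516 and 19400 CPM of the LEC transcriptome in the 3 libraries. That sum was 20765 ± 1819 CPM (SD, n = 3) in BEC, 11767 in fibroblasts, 11791 in myeloid cells, 11109 in T cells, 5127 in plasma or B cells, 4240 in epithelium and 3274 in mural cells. Endothelium of both kinds thus held the highest sums, and the LEC and BEC ranges overlapped. LEC was the highest class for 23 members, BEC for 18, myeloid and T cells for 2 each, and fibroblasts and epithelium for 1 each. Plasma or B cells were lowest for 23 and mural cells for 16. In plasma or B cells 5 marker genes alone held 325047 to 504017 CPM, which lowers the CPM of every other gene there. The order of the classes over all genes is not given here. Within LEC the libraries were close: the highest library exceeded the lowest by a median of 1.18 times over the members, and only Igtp (1.52) and Rsad2 (1.50) went past 1.5. Library 2 was the highest for 28 members, library 1 for 17 and library 3 for 2.

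By set, the type I sum was 1726 ± 75.0 CPM in LEC (SD, n = 3) and 1687 ± 443 in BEC, against 657 in myeloid cells, 440 in fibroblasts, 375 in T cells and 188 in epithelium. The type II sum was 2508 ± 217 CPM in LEC and 3782 ± 455 in BEC, with 1558 in fibroblasts, 688 in T cells and 194 in epithelium. BEC stood above LEC in that set in every library. The antigen-processing sum was 9890 ± 558 CPM in LEC, 8743 ± 1305 in T cells, 8257 ± 170 in BEC and 7490 ± 908 in myeloid cells, and it was 3442 ± 523 in plasma or B cells and 3298 in epithelium.

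**Figure D1:**
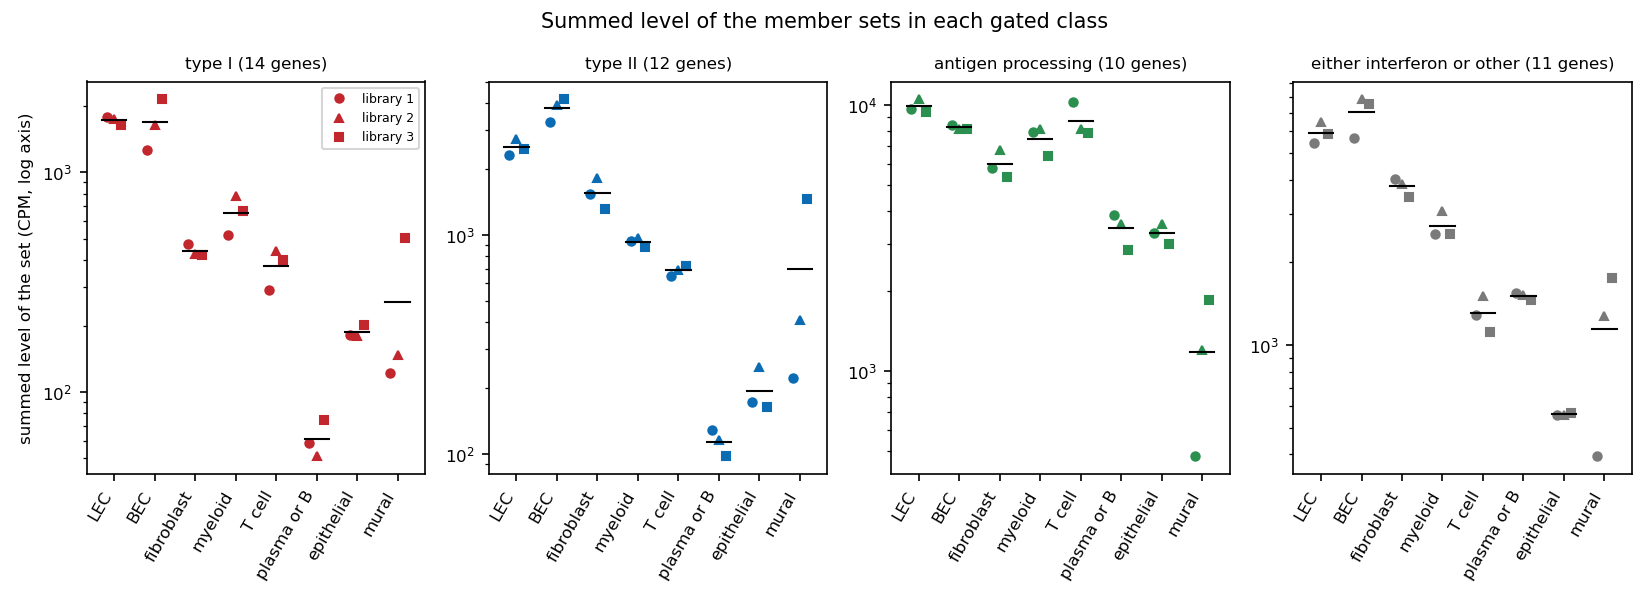
Summed CPM of each member set (vertical axis, log scale) in the 8 gated classes (horizontal axis); each symbol is 1 library and the bar is the mean of 3. LEC and BEC lead the type I and type II sets, at 1726 and 1687 CPM and at 2508 and 3782 CPM. For antigen processing the T cell mean of 8743 CPM lies between LEC at 9890 and BEC at 8257.

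LEC and BEC were compared to ask whether the 2 endothelia carry the program alike. The type I genes did not move as a block. Isg15, a ubiquitin-like modifier, was measured at 590.5, 659 and 611 CPM in LEC and at 367, 499.99 and 761 CPM in BEC. The groups overlapped, and the difference did not pass the test (log2 fold change 0.20, edgeR adjusted p = 0.365). Ifit1, which binds viral RNA ends, stood at 98.8, 98.4 and 82.3 CPM in LEC and at 124, 408 and 455 CPM in BEC. All 3 BEC values lay above all 3 LEC values, and Ifit1 was 3.55-fold lower in LEC (log2 fold change -1.83 ± 0.17 SE, edgeR adjusted p = 5.04e-26). Its neighbour Ifit3 had 71.0, 69.3 and 66.3 CPM in LEC and 81.1, 76.4 and 74.2 CPM in BEC, a difference that missed the threshold (adjusted p = 0.531).

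Of the 47 members, 13 were higher in LEC, 12 were lower and 22 did not pass (edgeR quasi-likelihood test with library as a block, Benjamini-Hochberg adjusted over 12708 genes). The background was 25.2% of all tested genes called, 13.1% higher and 12.1% lower. The median log2 fold change was 0.22 over the members and 0.16 over all genes, so the members as a list were not shifted from the background while single genes differed in both directions. The count of 25 called became 18 without library 2 and 19 without library 3. Summed plasma cell markers were 321 to 439 CPM in BEC and 117.5 to 219 in LEC, and 7 of 15 immediate early and heat shock genes were higher in LEC and 4 lower; the part of either in the member values was not tested.

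Within the type I set 4 genes were higher, 3 lower and 7 missed. Cmpk2, a mitochondrial nucleotide kinase that lies beside Rsad2, was read at 49.5, 50.5 and 49.0 CPM in LEC and 19.1, 12.7 and 9.89 CPM in BEC, 3.52-fold higher in LEC (adjusted p = 3.88e-06). Ifi44 was 1.96-fold higher (161 against 84.9 CPM, adjusted p = 1.4e-05). Rsad2, which makes the antiviral nucleotide ddhCTP, had 176, 162 and 117 CPM in LEC and 138, 63.7 and 104 CPM in BEC. Its call (log2 fold change 0.67) was lost without library 2, with DESeq2 and without the library block. It was also lost when cells were thinned to 3000 UMIs and without the 5% of cells with the most UMIs. Oasl2, an oligoadenylate synthetase-like gene, was 2.03-fold lower in LEC (38.6 against 73.5 CPM, adjusted p = 0.000113), also lost without library 2. Irf7, the amplifying transcription factor of the type I response, was 52.2 ± 1.42 CPM in LEC and 70.3 ± 11.7 in BEC (SD, n = 3; adjusted p = 0.0812).

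The type II set split in the same way, with 3 genes higher, 5 lower and 4 missed. Irf1, an early transcription factor of the IFN-gamma response, stood at 512, 603 and 641 CPM in LEC and at 1140, 1132 and 1122 CPM in BEC. It was 1.99-fold lower in LEC (adjusted p = 6.05e-11), with a gap far wider than the spread of either group. The GTPases Ifi47 and Irgm1 were 3.80-fold and 2.77-fold lower in LEC (60.7 against 224 CPM and 68.5 against 193 CPM; adjusted p = 1.98e-25 and 6.14e-15). Iigp1, which attacks the vacuoles of intracellular parasites, had 493, 539 and 450 CPM in LEC and 1063, 1167 and 1330 CPM in BEC (log2 fold change -1.30).

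The Gbp genes, a family of related members, some of whose reads may be split or lost in counting, did not share a direction. Gbp2 was read at 339, 400.3 and 385 CPM in LEC and 172, 207 and 247 CPM in BEC, 1.76-fold higher in LEC (adjusted p = 8.38e-06). Gbp5, which supports inflammasome assembly, was read at 69.4, 73.6 and 67.6 CPM in LEC and 81.1, 194 and 242 CPM in BEC, 2.52-fold lower in LEC (adjusted p = 6.84e-12). Gbp4 was 152 ± 21.9 CPM in LEC and 165 ± 42.0 in BEC and missed the threshold (adjusted p = 0.511). Irgm2 went against Irgm1, at 105 CPM in LEC and 41.4 in BEC, 2.52-fold higher. Serpina3f, a serine protease inhibitor, had 0 UMIs in BEC and 3.09 CPM in LEC, and did not pass (adjusted p = 0.117).

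Antigen processing was the evenest set, with 3 of 10 genes higher in LEC and 7 missed. B2m, the invariant light chain of class I, stood at 2922, 3115 and 2555 CPM in LEC and 2699, 2438 and 2146 CPM in BEC (adjusted p = 0.314). The class I heavy chains H2-K1 (2526 against 2119 CPM) and H2-D1 (2538 against 2173 CPM) were each higher in LEC in 3 of 3 libraries and missed the threshold (adjusted p = 0.273 and 0.365); reads of these genes may be shared with the H2-Q genes. Tap1, a subunit of the peptide transporter, was 109 ± 17.2 CPM in LEC and 131 ± 19.7 in BEC (adjusted p = 0.291). The immunoproteasome subunit Psmb9 was 1.63-fold higher in LEC (260.4 against 152.5 CPM, adjusted p = 0.00039) and lost its call without library 3. Psmb8, its partner, passed narrowly (439 against 334 CPM, edgeR adjusted p = 0.0462), with BEC values of 181, 365 and 455 CPM. It lost its call in 8 settings, among them without library 1 or library 2 and with DESeq2. Tapbp, the tapasin that bridges class I to the transporter, was 1.51-fold higher.

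Among the remaining 11 genes, Zbp1, a sensor of Z-form nucleic acid, had the highest ratio of all members. It was read at 181, 236 and 201 CPM in LEC and at 14.3, 22.3 and 9.89 CPM in BEC, 11.6-fold higher in LEC (adjusted p = 1.99e-36). Ube2l6, the enzyme that charges ISG15 for conjugation, was 2.50-fold higher (59.9 against 23.5 CPM). Ifi35 and Ly6e were 1.63-fold and 1.51-fold lower in LEC, and both calls were lost without library 3. That of Ifi35 was also lost when cells were thinned to 3000 UMIs.

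**Figure D2:**
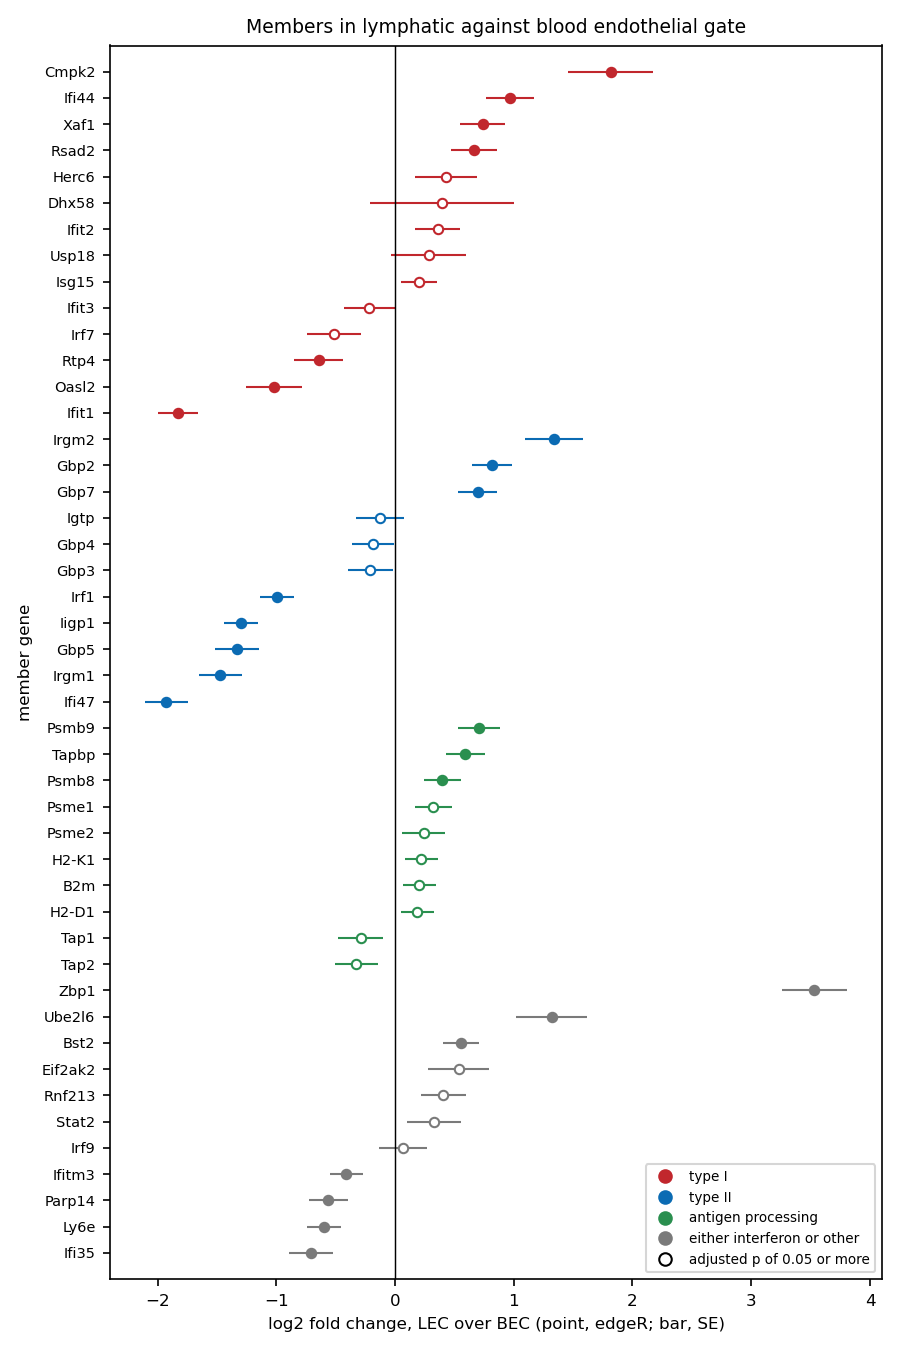
Log2 fold change of 46 members in LEC over BEC (horizontal axis; points, edgeR estimates; bars, standard errors), ordered within the 4 sets; Serpina3f, with 0 UMIs in BEC, is left out. Filled points passed the adjusted p threshold of 0.05: Zbp1 at 3.53 is the farthest to the right, Ifi47 at -1.93 and Ifit1 at -1.83 the farthest to the left.

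Of 48 other genes of the interferon pathway tested between LEC and BEC, 8 were higher in LEC and 11 lower. The chemokine Cxcl10 had 54.4, 67.9 and 62.6 CPM in LEC and 209.8, 906 and 816 CPM in BEC, 9.89-fold lower (adjusted p = 9.56e-85). Cxcl9 was 6.53-fold lower in LEC (20.5 against 128 CPM). BEC of library 1 stood below the other 2 for both chemokines, Ifit1 and Gbp5. The receptor genes Ifnar1, Ifnar2, Ifngr1 and Ifngr2 did not pass (adjusted p = 0.281, 0.0725, 0.168 and 0.558), nor did the class I and class II transactivators Nlrc5 (0.724) and Ciita (0.493).

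Against T cells, the type I and type II sets were higher in LEC and the antigen-processing set was close to level. Of the 47 members, 37 were higher in LEC and 0 lower, with 10 missed; 41.3% of 12843 tested genes were called, 27.3% higher. The median log2 fold change was 1.62 over the members and 0.50 over all genes. By set, 12 of 14 type I, 10 of 12 type II, 4 of 10 antigen-processing and 11 of 11 remaining genes were higher. Without trimmed-mean (TMM) scaling all values sat lower by a median of 0.18, 32 members were higher and 1, Psme2, lower. The list of 15 immediate early and heat shock genes had 13 higher in LEC, with a median log2 fold change of 3.95; in the T cell gate summed LEC markers were 126 to 301 CPM, myeloid markers 28.1 to 340 and plasma cell markers 180 to 426. The part of these in the member values was not tested. The count of 37 became 31 without library 2 and 29 without library 3.

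Isg15 was read at 130.2, 203 and 206 CPM in T cells, all below the LEC values, and was 3.82-fold higher in LEC (adjusted p = 6.98e-23). Iigp1, at 40.1, 44.2 and 4.68 CPM in T cells, was 18.8-fold higher in LEC (adjusted p = 3.54e-53). Gbp2 was 7.90-fold higher (375 against 50.9 CPM) and Irf1 3.43-fold higher (585 against 196 CPM). Ifit2 and Ifit3 rested on 1 T cell UMI each, so their ratios of 101 (exact 95% interval 18.2 to 4007) and 47.9 (8.60 to 1892) are bounded loosely and cover counting error only. Ifitm3, a membrane protein that blocks viral entry, was 57.0-fold higher (3248 against 56.2 CPM).

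The class I chains differed by less. B2m stood at 2724, 2136 and 1825 CPM in T cells, overlapping LEC, and was 1.49-fold higher in LEC (adjusted p = 4.23e-05), a call lost without library 3 and with DESeq2. H2-D1 was 1.38-fold higher (adjusted p = 0.00123) and H2-K1 1.23-fold higher (adjusted p = 0.0499), and both calls were lost without library 2 or library 3 and with DESeq2. Tap1 was 109 CPM in LEC and 121 in T cells and Psmb8 439 and 562 (adjusted p = 0.839 and 0.478). The T cell gate carried Ifng, the type II ligand itself, at 17, 16 and 11 UMIs (170.2, 41.6 and 51.5 CPM), while 18535 LEC held 1 UMI. Ifngr1 was 3.68-fold lower in LEC than in T cells (190.4 against 796 CPM, adjusted p = 2.9e-27) and Ifnar1 1.72-fold lower (adjusted p = 0.0099), the Ifnar1 call being lost without library 2 or library 3 and with DESeq2. Ifnar2 was 3.45-fold higher (229 against 72.1 CPM). In all, 21 of 51 pathway genes were higher in LEC than in T cells and 10 lower.

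Epithelium held the members at low levels. Of the 47, 43 were higher in LEC, 1 lower and 3 missed, where 77.6% of 14067 tested genes were called, 43.0% higher and 34.6% lower. The median log2 fold change was 2.33 over the members and 0.22 over all genes, and without TMM scaling all values sat higher by a median of 0.17. The 44 calls stood without any 1 library, but 38 of them remained when cells were thinned to 3000 UMIs. Without the 5% of cells with the most UMIs 33 remained, and Ifit1, Stat2, Tap1, Tapbp and H2-K1 were among those lost. Leaving out those cells cut the epithelial gate from 121, 397 and 107 cells to 50, 193 and 47. The list of immediate early and heat shock genes had 14 of 15 higher in LEC, with a median log2 fold change of 2.40, and its part in the member values was not tested. Gbp5 was read at 0.470, 0.428 and 1.45 CPM in epithelium and was 104-fold higher in LEC, with Iigp1 91.5-fold and Gbp2 75.6-fold higher (adjusted p = 2.52e-07, 2.29e-06 and 1.15e-07). Rsad2 and Ifi44 were 40.5-fold and 39.5-fold higher. Class I was closer: H2-D1 was 4.99-fold, H2-K1 3.74-fold and B2m 3.04-fold higher, B2m standing at 881, 914 and 726 CPM in epithelium. Without the 5% of cells with the most UMIs the log2 fold change of H2-K1 went from 1.90 to 0.62 and its call was lost.

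Psme2, which codes for a subunit of the proteasome activator PA28, was the 1 member called lower in LEC with all kept cells at full depth. Its levels were 163, 198 and 192 CPM in LEC and 413, 416.5 and 398 CPM in epithelium (2.50-fold, adjusted p = 3.49e-05), and the call was lost without the 5% of cells with the most UMIs. Irf7 missed the threshold, at 52.2 CPM in LEC and 44.3 in epithelium (edgeR adjusted p = 0.526). When cells were thinned to 3000 UMIs its log2 fold change turned to -0.76, and without the cells of most UMIs to -1.73. Both of these passed the threshold, so Irf7 was called lower in LEC there. Epithelial cells had median UMI counts of 20055 to 27526, against 6765 to 8131 in LEC, and the part of depth in these values was not tested beyond those 2 settings. Among 52 pathway genes 34 were higher in LEC and 10 lower; Ifngr2 was 7.78-fold lower (21.3 against 148 CPM), Ciita 4.24-fold lower (5.58 against 21.0 CPM) and Nlrc5 9.41-fold higher (35.1 against 2.87 CPM).

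Fibroblasts lay between. LEC were higher for 42 of the 47 members, lower for 2, and 3 missed, where 53.2% of 13582 tested genes were called, 28.5% higher and 24.7% lower. The median log2 fold change was 1.06 over the members and 0.08 over all genes, and 9 of the 15 immediate early and heat shock genes were higher and 3 lower. Rsad2 stood at 4.78, 5.79 and 7.12 CPM in fibroblasts and was 26.4-fold higher in LEC (adjusted p = 2.67e-13), Ifi44 12.0-fold and Isg15 6.27-fold. The type II genes were nearer to level: Irf1 was 1.80-fold, Gbp2 2.62-fold and Gbp5 1.65-fold higher, and Iigp1 was 494 CPM in LEC and 520.0 in fibroblasts (adjusted p = 0.809). Serpina3f was 5.75-fold lower in LEC (3.09 against 18.4 CPM, adjusted p = 9.28e-07) and Ifi47 1.27-fold lower (60.7 against 80.1 CPM, adjusted p = 0.0196), the last call lost without library 2 and with DESeq2. All 10 antigen-processing genes were higher, from H2-D1 at 1.64-fold to Tap2 at 2.78-fold. Cxcl10 and Cxcl9 were 9.30-fold and 10.6-fold lower in LEC than in fibroblasts.

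The mural, myeloid and plasma or B gates had 8, 19 and 4 cells in library 1 and were not tested. Myeloid cells held B2m at 2960, 2867 and 2319 CPM, overlapping LEC, and Rsad2 at 9.14, 107 and 79.1 CPM. Plasma or B cells had 0 UMIs of Ifit1, Ifit2 and Rsad2, so LEC levels were at least 33.6-fold, 53.2-fold and 54.2-fold higher, taking 3 UMIs over the gate as the floor. Mural values differed widely between libraries, as for Iigp1 at 35.8, 70.3 and 663 CPM.

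Ligand transcripts were rare. Ifnb1 had 2 UMIs in LEC and 0 in every other gate. Type III interferon acts mainly on epithelium, and its receptor gene Ifnlr1 had a mean of 0.0316 CPM in LEC, from 5 UMIs, and 5.14 CPM in epithelium. The receptor genes were present in LEC at 47.9 ± 3.43 CPM for Ifnar1, 229 ± 5.60 for Ifnar2, 190.4 ± 13.1 for Ifngr1 and 21.3 ± 1.17 for Ifngr2 (SD, n = 3).

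Within LEC, the members were then compared from cell to cell. Each cell was thinned to 3000 UMIs, which left out 459 cells and kept 18076. At that depth 56.3% of LEC had an Isg15 UMI (exact 95% interval 55.5 to 57.0), against 60.4% of BEC (51.6 to 68.8), 38.3% of T cells, 9.52% of epithelial cells and 5.36% of plasma or B cells; unthinned, the LEC share was 73.1% and the BEC share 72.8%. Rsad2 was seen in 21.6% of LEC and Gbp2 in 56.5%, against 1.74% and 11.3% of T cells.

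Spread beyond counting noise differed between the sets by median, while their ranges overlapped. It was measured as the squared coefficient of variation left after subtracting Poisson noise, averaged over the libraries. All 9110 genes with a mean of at least 0.02 UMIs, not matched to the members by level, had a median of 0.353. The type I genes had a median of 2.71, from 0.350 for Xaf1 to 9.79 for Rsad2, and Ifit1 and Ifit3 stood at 5.24 and 4.60. The type II genes had a median of 1.19, between 0.811 and 1.86. The remaining 11 genes had a median of 0.575, from 0.173 to 1.21. Antigen-processing genes had a median of 0.150, below that of all genes: B2m was at 0.0743, H2-D1 at 0.0776 and H2-K1 at 0.0823, and Tap1 was highest at 0.634. Rsad2 ranked at the 99.1 percentile of all genes and B2m at the 11.4 percentile.

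**Figure D3:**
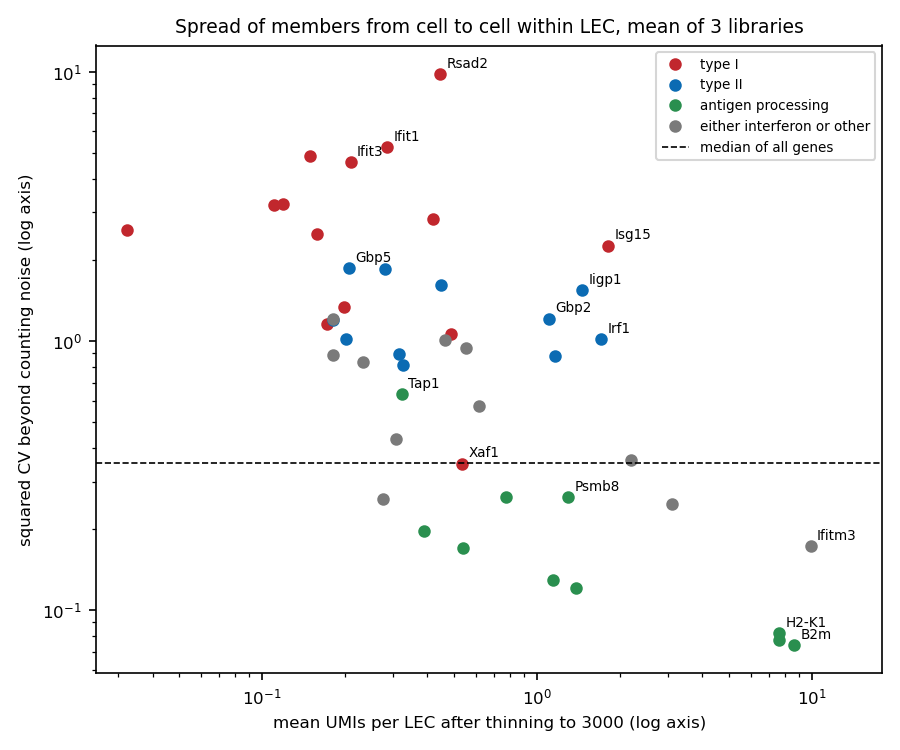
Squared coefficient of variation beyond counting noise (vertical axis, log scale) against mean UMIs per thinned LEC (horizontal axis, log scale) for 46 members, coloured by set; the dashed line is the median of all genes, 0.353. Rsad2 is highest at 9.79 and the class I chains H2-K1, H2-D1 and B2m lie lowest, under 0.1.

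Pairs of genes were described by a co-occurrence ratio, the mean product of their UMIs over the product of their means, where 1 means independence. Cells of 1 library share its pool and its run, so no p is given. Over the 91 pairs within the type I set the median ratio was 2.39, 2.80 and 2.197 in the 3 libraries. Over 55 pairs within the type II set it was 1.69, 1.57 and 1.69, and over the 154 pairs between both sets 1.62, 1.60 and 1.52. By this ratio the type I pairs had the highest of these 3 medians in every library, and the type II pairs lay close to the mixed pairs. By the Pearson correlation of log counts the same medians were 0.153, 0.181 and 0.138 within type I, 0.137, 0.155 and 0.145 within type II, and 0.107, 0.109 and 0.0912 between them. By that measure the type II pairs stood above the mixed pairs in every library, and above the type I pairs in library 3.

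The strongest pair by correlation was Ifit1 with Ifit3, at ratios of 4.29, 5.68 and 4.42 and correlations of 0.356, 0.409 and 0.350 over 18076 cells. Ifit1 with Isg15 had ratios of 2.82, 3.10 and 2.66, and Gbp7 with Iigp1 1.64, 1.62 and 1.67. Antigen-processing pairs had a median ratio of 1.08, 1.08 and 1.07 and a median correlation of 0.0885, 0.0935 and 0.0855. Isg15 with B2m stood at ratios of 1.01, 1.05 and 1.04. Genes of low spread lie near 1 by this ratio whether or not they vary together, so it cannot show independence for them.

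To part the 2 patterns, LEC were scored by a type I index, the summed thinned UMIs of Ifit1, Ifit3 and Rsad2, and a type II index, those of Gbp2, Gbp4 and Gbp5. A cell was positive at 3 UMIs or more for the first and 5 or more for the second, the smallest sums that at most 10% of cells reach. Such a class is a range of a score and not a cell type: 660 cells lay at the type I cut and 1391 just under it, and 503 and 962 for type II. By library, 11.3%, 9.89% and 8.47% of LEC were positive for type I and 6.36%, 9.37% and 7.71% for type II. Cells positive for both numbered 124, 109 and 136, which is 3.13, 2.54 and 2.62 times the number that independent indices would give. That left 498, 349 and 538 cells with the type I index only, 225, 325 and 477 with the type II index only, and 4641, 3850 and 6804 with neither. The 6 index genes chose the cells and were left out of the tests. For them, Rsad2 had 2.59, 2.50 and 1.91 UMIs per type I-index cell and 0.284, 0.366 and 0.262 per type II-index cell, and Gbp2 0.962, 1.15 and 1.19 against 3.91, 4.02 and 5.27.

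Type I-index cells carried more of nearly the whole program than index-negative cells of the same libraries. Of 41 members tested, 37 were higher and 0 lower, where 1.81% of 11395 tested genes were called, 1.52% higher and 0.290% lower. Isg15 was read at 4.24, 5.01 and 4.66 UMIs per cell against 1.28, 1.47 and 1.44 in cells with neither index, 3.34-fold higher (log2 fold change 1.74 ± 0.03, adjusted p = 2.28e-55). Oasl2 was 5.05-fold higher and Usp18, the protease that strips ISG15 and dampens the type I receptor, 4.46-fold. Irf7 was 2.77-fold and Eif2ak2, the RNA-activated kinase PKR, 2.64-fold higher. All 11 tested type I genes and 7 of 9 type II genes were higher, led by Ifi47 (2.27-fold) and Igtp (2.12-fold).

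Irf1 did not pass in type I-index cells, at 1.46, 1.68 and 1.71 UMIs per cell against 1.50, 1.69 and 1.85 (adjusted p = 0.873). In antigen processing 8 of 10 were higher, led by Tap1 (1.58-fold, adjusted p = 3.03e-11), with Psmb8 1.35-fold higher; both calls were lost without the library block. H2-K1 was 1.06-fold higher (adjusted p = 0.0345), a call lost without library 2 or library 3 and with DESeq2, and B2m and H2-D1 did not pass (adjusted p = 0.126 and 0.713). Of 47 pathway genes 24 were higher and 1, Socs3, an inhibitor of cytokine signalling, lower. Nlrc5 was 1.45-fold higher, a call lost without library 1 or library 2, with DESeq2 and without the block. Cxcl10 was 1.86-fold higher, though the call was lost without library 3, and Cxcl9 did not pass (adjusted p = 0.483). None of Ifnar1, Ifnar2, Ifngr1 and Ifngr2 passed (adjusted p from 0.882 to 0.994).

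Type II-index cells gave 37 of 41 members higher and 0 lower, where 2.62% of 11335 tested genes were called, 1.91% higher and 0.715% lower. Serpina3f was 9.66-fold higher (12.5 against 1.41 CPM) and Igtp 3.59-fold (adjusted p = 2.17e-12 and 4.5e-72). Iigp1 had 3.68, 3.33 and 3.08 UMIs per cell against 1.18, 1.31 and 1.10. Irf1 had 2.29, 2.10 and 2.26 against 1.50, 1.69 and 1.85 and was 1.32-fold higher (adjusted p = 1.81e-11). Tap1 was 2.36-fold, Tap2 1.75-fold and B2m 1.16-fold higher, and H2-K1 and H2-D1 did not pass (adjusted p = 0.0786 and 0.700). The type I genes Isg15, Ifit2 and Oasl2 were 1.57-fold, 1.85-fold and 1.95-fold higher, and the Oasl2 call was lost without library 3. Zbp1 and Rnf213 were 1.95-fold and 1.88-fold higher.

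In the pathway list 23 of 47 genes were higher in type II-index cells and 0 lower. Cxcl9 was 23.7-fold higher (107.5 against 4.87 CPM, adjusted p = 4.19e-103), Cxcl10 6.24-fold and Ciita 5.90-fold. Ifngr1 was 1.31-fold higher (adjusted p = 6.48e-06), a call lost without library 2 and without the block, and Ifnar1, Ifnar2 and Ifngr2 did not pass (adjusted p = 0.871, 0.746 and 0.469). Without the library block 23 of the 41 members were called, and B2m and Irf1 were among those lost.

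In the direct test of type I-index against type II-index cells the members differed by set. The groups were chosen on the 2 indices, and cells positive for both were left out. Genes that follow 1 index more than the other were therefore set apart by that choice. The sets and indices were also chosen with earlier results of these data known. Of 40 tested, 15 were higher in type I-index cells, 10 lower and 15 missed, where 1.50% of 8747 tested genes were called, 0.675% higher and 0.823% lower. All 11 tested type I genes were higher in type I-index cells. Of the 8 tested type II genes 6 were lower and Ifi47 and Irgm1 missed. Antigen processing had 4 of 10 lower and 0 higher, and the remaining set had Eif2ak2, Ifi35, Parp14 and Rnf213 higher and 0 lower. With DESeq2 14 members were called and without the library block 13, and both called Isg15, Cmpk2, Usp18, Igtp, Iigp1 and Tap1. Ifi35, Parp14 and Rnf213 lost their calls with DESeq2, without the block and without library 2, and Ifi35 also without library 1. The count was 21 without library 2 and 19 without library 3.

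Dhx58, a regulator of RNA sensing, was 3.30-fold higher in type I-index cells, and Cmpk2 was higher there by 1.59 on the log2 scale; DESeq2 gave no adjusted p for Dhx58. Isg15 had 2.12, 2.23 and 2.22 UMIs per type II-index cell, all below the type I-index values, and was 2.13-fold higher in type I-index cells (log2 fold change 1.09 ± 0.05, adjusted p = 1.73e-33). Irf7 was 1.54-fold higher (adjusted p = 0.000982), a call lost without library 2, with DESeq2 and without the block. On the other side Igtp was 1.69-fold, Iigp1 1.51-fold and Tap1 1.50-fold lower in type I-index cells (adjusted p = 2.76e-10, 4.52e-17 and 2.49e-06). Irf1 was 1.36-fold lower (adjusted p = 9.77e-09), and its call was lost without the block. Psmb9 was 1.36-fold and B2m 1.11-fold lower (adjusted p = 1.36e-05 and 0.0102), both lost without library 3, with DESeq2 and without the block, and B2m also without library 2, while Psmb8, H2-K1 and H2-D1 missed (adjusted p = 0.452, 0.872 and 0.962).

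Among 46 pathway genes 5 were higher in type I-index cells and 9 lower. Cxcl9 had 0.00402, 0.0143 and 0.0483 UMIs per type I-index cell and 0.142, 0.314 and 0.512 per type II-index cell, 13.6-fold lower in the first (adjusted p = 1.58e-27). Ciita was 4.79-fold, Cxcl10 3.41-fold and Nlrc5 1.63-fold lower. The calls of Ciita and Nlrc5 were lost without library 3, and that of Nlrc5 also with another thinning seed, the stricter LEC gate and no block. Ifngr1 was 1.26-fold lower (adjusted p = 0.0171), a call lost when any 1 library was left out, with DESeq2, without the block, with another seed and at both other index shares, and the other 3 receptor genes missed (adjusted p = 0.593 to 0.968). None of 12 other class I genes and chaperones of class I loading passed.

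**Figure D4:**
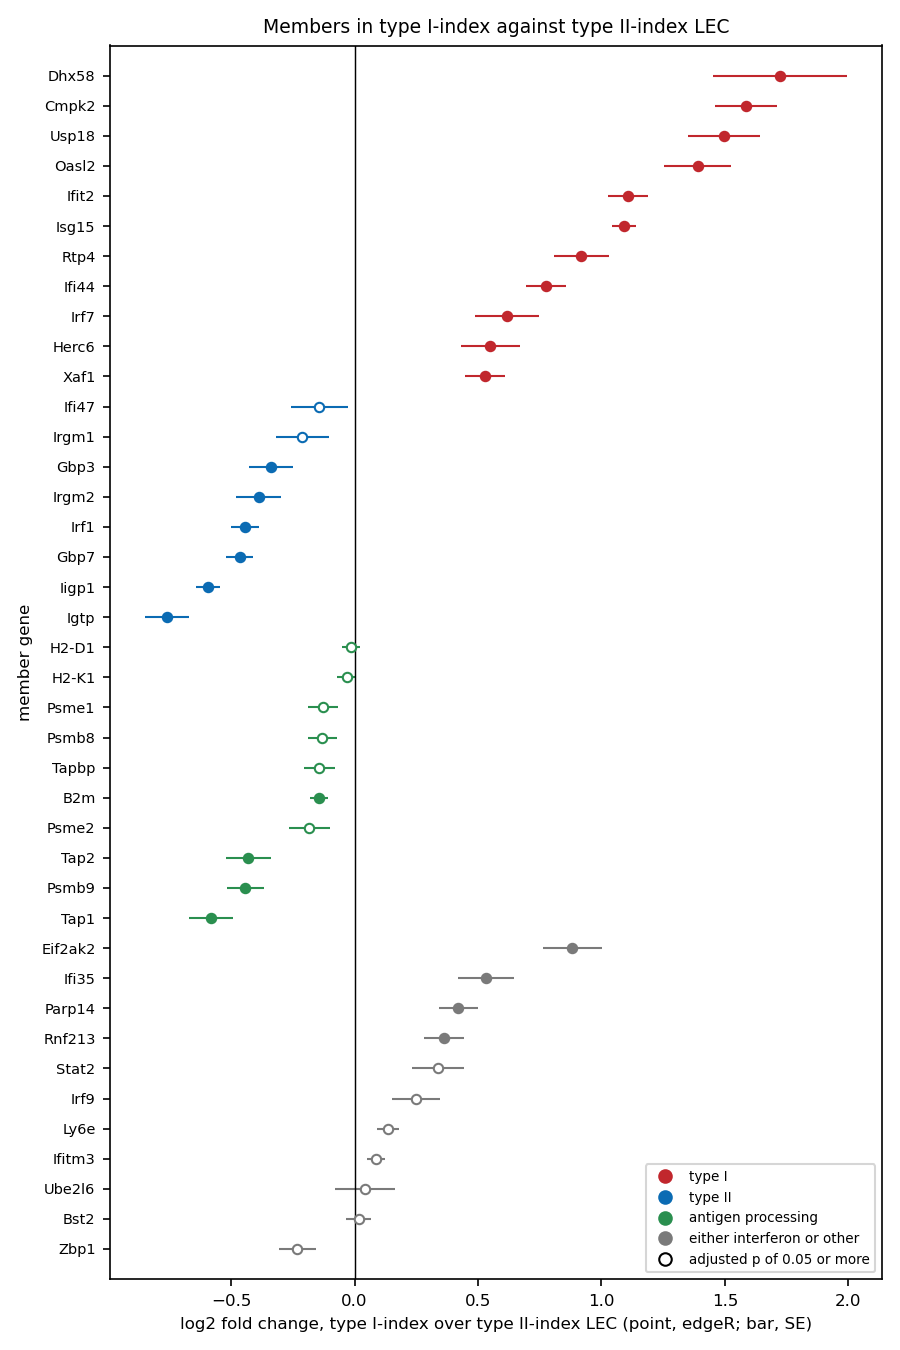
Log2 fold change of 40 members in type I-index over type II-index LEC (horizontal axis; points, edgeR estimates; bars, standard errors), ordered within the 4 sets. All 11 type I genes are filled and right of 0, from Dhx58 at 1.72; the 8 type II genes lie left of 0 to Igtp at -0.76, and H2-K1 and H2-D1 sit at -0.03 and -0.01.

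Cells positive for both indices held the highest levels of most members shown, given as a description. Isg15 stood at 7.02, 7.66 and 6.88 UMIs per cell there, Iigp1 at 4.48, 4.15 and 4.25, and Cxcl10 at 2.27, 2.73 and 1.79 against 0.0636, 0.0951 and 0.115 in cells with neither. B2m had 9.73, 10.4 and 9.14 UMIs against 8.73, 9.19 and 7.56.

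**Figure D5:**
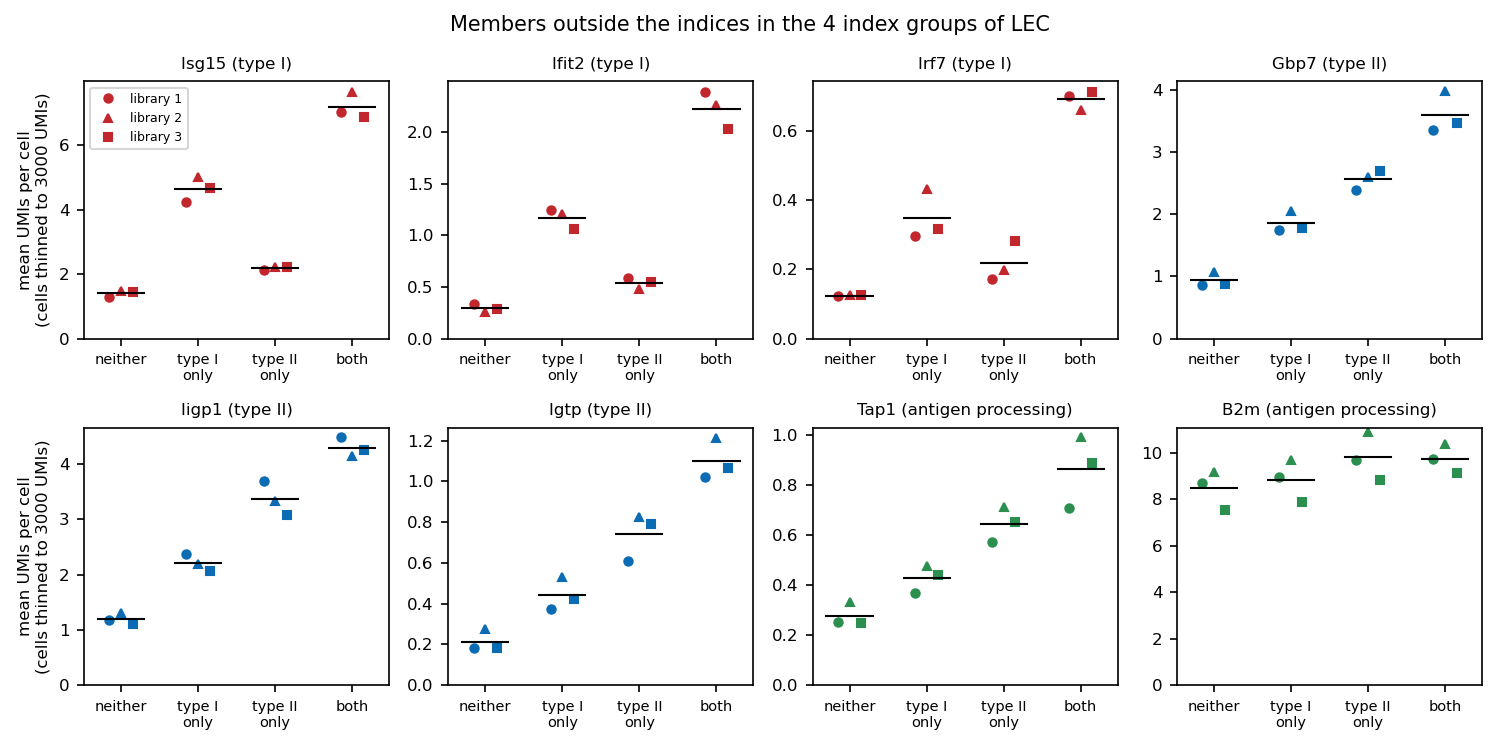
Mean UMIs per thinned cell (vertical axes, from 0) of 8 members outside the indices in LEC with neither index, type I only, type II only or both (horizontal axes); each symbol is 1 library and the bar is the mean of 3. Isg15 is higher in type I only than in type II only cells, Iigp1 and Tap1 the reverse, and B2m is nearly flat.

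Depth and markers of other cell types were also read in the index groups. Median UMIs before thinning were 8173, 7231 and 6664 in type I-index cells, 8144, 7840 and 7054 in type II-index cells and 8234, 7108 and 6802 in cells with neither. Summed myeloid markers ran from 0.0281 to 0.0558 UMIs per type I-index cell, 0.0338 to 0.0400 per type II-index cell and 0.0293 to 0.0400 with neither, with a median of 0 in each group. T cell markers were 0.0667, 0.120 and 0.138 UMIs per type II-index cell and 0.121, 0.108 and 0.129 with neither. Plasma cell markers were 0.384, 0.768 and 0.621 UMIs per type I-index cell, 0.338, 0.658 and 0.354 per type II-index cell and 0.371, 0.666 and 0.369 with neither. Among these groups they were highest in type I-index cells in each library, with the widest gap in library 3. Cells positive for both indices had 0.266, 0.862 and 0.390, above the type I-index value in library 2. The part of these markers in the member values was not tested. Immediate early and heat shock genes numbered 0 higher and 2 of 15 lower in type I-index cells, and 0 higher and 1 lower in type II-index cells, both against cells with neither.

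The genes most correlated with each index over LEC are given as a description, with the correlation averaged over the 3 libraries among 9110 genes. For type I they were Isg15 (0.390), Ifit1 (0.382), Ifit3 (0.374), Ifit2 (0.364), Rsad2 (0.338), Ifit3b (0.317), Oasl2 (0.295), Cmpk2 (0.295), Usp18 (0.272) and Gbp7 (0.263). For type II they included Gbp7 (0.335), Gbp6 (0.312), Iigp1 (0.302), Igtp (0.259), Gbp2 (0.235), Cd274 (0.232), Gbp4 (0.228), Rsad2 (0.214) and Gbp3 (0.211). Each index gene was left out of the sum it was correlated with. Ifit3 and Ifit3b are near-identical copies, and their reads may be split in counting. Of the 46 ranked members, 30 were in the top 50 for type I and 29 for type II.

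Promoters of members were searched for 2 classic motifs. The first was the interferon-stimulated response element core (the response element), spelled as GAAA, any 2 bases and GAAA again and searched on both strands. The second was the gamma-activated site, spelled TTCNNNGAA, which reads the same on both strands. The sequences come from RefSeq, build GRCm38.p6, and 38 of the 47 members had an entry covering 250 bases before to 50 after the start. The response element was found in 17 of 38 (44.7%), against 3.99% of 27025 genes counted in the same way over any of their promoters, and TTCNNNGAA in 12 of 38 (31.6%) against 9.55%. By set the first was in 4 of 11 type I, 7 of 10 type II, 2 of 9 antigen-processing and 4 of 8 remaining promoters, and the second in 1 of 11, 6 of 10, 1 of 9 and 4 of 8. Adjacent response element matches can overlap, as in Isg15. The 250 bases upstream of the start are printed 5′ to 3′ on the gene's strand, and capitals mark both motifs. Shown are Ifit1 and Isg15, which led the type I pattern, Gbp5, Igtp and Irf1 of the type II set, and B2m, which varied little. Irf1 followed the type II index only weakly, at a mean correlation of 0.0466 and rank 200, against 0.137 for B2m. They lie at chr19:34640639-34640888 (plus strand, Ifit1), chr4:156200819-156201068 (minus, Isg15), chr3:142496684-142496933 (plus, Gbp5), chr11:58199306-58199555 (plus, Igtp), chr11:53769764-53770013 (plus, Irf1) and chr2:122147437-122147686 (plus, B2m).
Ifit1: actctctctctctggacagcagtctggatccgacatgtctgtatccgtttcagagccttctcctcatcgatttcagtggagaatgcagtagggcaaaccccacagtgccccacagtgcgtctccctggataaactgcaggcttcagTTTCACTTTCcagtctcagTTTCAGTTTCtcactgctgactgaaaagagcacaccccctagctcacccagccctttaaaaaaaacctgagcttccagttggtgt
Isg15: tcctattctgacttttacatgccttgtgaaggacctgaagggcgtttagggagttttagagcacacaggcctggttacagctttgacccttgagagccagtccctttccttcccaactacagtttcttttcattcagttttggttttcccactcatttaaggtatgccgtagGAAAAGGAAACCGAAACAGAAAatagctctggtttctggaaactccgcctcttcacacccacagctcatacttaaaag
Gbp5: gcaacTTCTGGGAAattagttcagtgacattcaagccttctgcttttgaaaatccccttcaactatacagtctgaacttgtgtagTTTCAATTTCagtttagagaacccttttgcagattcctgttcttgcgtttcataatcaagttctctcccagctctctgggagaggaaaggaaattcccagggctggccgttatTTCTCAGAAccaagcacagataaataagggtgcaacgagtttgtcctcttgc
Igtp: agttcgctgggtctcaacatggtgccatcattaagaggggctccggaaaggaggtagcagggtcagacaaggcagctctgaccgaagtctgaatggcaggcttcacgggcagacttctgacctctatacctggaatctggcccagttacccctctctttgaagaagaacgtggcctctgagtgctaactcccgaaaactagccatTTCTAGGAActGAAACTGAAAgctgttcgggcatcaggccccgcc
Irf1: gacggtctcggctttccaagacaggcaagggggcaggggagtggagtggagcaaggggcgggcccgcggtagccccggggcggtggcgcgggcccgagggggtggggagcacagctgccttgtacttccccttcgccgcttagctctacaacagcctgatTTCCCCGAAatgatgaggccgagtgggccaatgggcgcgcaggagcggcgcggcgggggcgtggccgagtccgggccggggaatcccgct
B2m: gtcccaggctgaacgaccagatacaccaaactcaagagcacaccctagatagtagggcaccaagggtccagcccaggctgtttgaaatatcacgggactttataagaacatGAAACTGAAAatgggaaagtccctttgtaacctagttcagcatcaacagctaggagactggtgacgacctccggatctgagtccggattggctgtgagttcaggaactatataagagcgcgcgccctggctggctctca

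Over the 300-base windows Ifit1 held 2 response element matches and 0 TTCNNNGAA matches, Isg15 held 3 and 0, and Gbp5 held 1 and 2. Igtp held 1 of each. Irf1, higher in type II-index but not called in type I-index cells, held 0 response elements and 1 TTCNNNGAA match. B2m held 1 and 0. A match describes letters and is not evidence of binding, and both motifs stood in members of every set.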

How the data were processed

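Droplet 3′ single-cell RNA was sequenced from 3 pools of sorted small intestinal cells, 4 animals each. The authors deposited a matrix of UMI counts, whole numbers, for each library, made with Cell Ranger 6.1.2 after bcl2fastq 2.2 on mm10, per the submitters' processing notes; filters before deposit are not given in the sources used here. The counts of 24541 barcodes were used as deposited. Cells were kept if they had 500 genes or more and no more than 15% mitochondrial UMIs, and classes were gated on raw UMIs. The 798 cells passing more than 1 gate were left out, which stands in for a doublet caller. Counting without molecular replicates covers sampling error only.

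Counts were summed per library and class and tested with edgeR 4.0.16 (filterByExpr, TMM, quasi-likelihood test) and a library block, because the cells compared shared a pool and a run. Benjamini-Hochberg adjustment ran over all genes tested, at a threshold of 0.05. Classes needed 20 cells in each library. LEC sums differed between libraries by more than sampling noise (chi-square per degree of freedom 18.9 to 70.5). The test was run on simulated data with known changes; for the fibroblast and epithelial sums it called unchanged genes more often than nominal, so calls there near the threshold are weak.

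The members, sets, gates and indices were chosen with earlier results of these data known. Each set's genes with the largest and second largest change past the threshold in each direction are named, with a fixed group of members and pathway genes named always. Alternatives were DESeq2 1.42.0, no TMM, no count filter, no block, leaving out each library, other gates, index cuts and seeds, thinning, at least 1000 genes per cell and dropping the 5% of cells with the most UMIs. Values for 1 gene of the pathway list are not reported here.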

Additional observations from a re-analysis of the deposited data

How the results depend on the processing

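Members called in the direct test of the 2 index groups fell from 25 to 14 with DESeq2, which gave Dhx58 no adjusted p, and to 13 with no replicate block, and those in type II-index against index-negative cells from 37 to 23 with no replicate block. Leaving out 1 library at a time gave 18 to 24 members against BEC, 29 to 37 against T cells, 44 to 44 against epithelium, 43 to 45 against fibroblasts, 35 to 36 for type I-index, 30 to 37 for type II-index against index-negative cells and 19 to 25 between the indices; with 2 libraries the fit has few degrees of freedom. Every other planned setting stayed within 1.5 times the count. Over all genes, calls against BEC went from 3204 to 2064 after thinning and against T cells from 5309 to 3186 without library 2. Calls against epithelium went from 10909 to 6681 without the cells of most UMIs, which left 50, 193 and 47 epithelial cells. Type I-index calls went from 206 to 115 with DESeq2 and 83 without the block, type II-index calls from 297 to 114 with DESeq2, 73 without the block, 123 without library 2 and 144 without library 3, and calls between the indices from 131 to 28 with DESeq2, 33 without the block and 68 without library 3. With DESeq2 the share of calls that were higher went from 84.0% to 95.7% for type I-index and from 72.7% to 93.9% for type II-index cells. The cause was not tested.

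Of the values for single genes, 2266 kept their direction and side of the threshold, 111 lost the call, 13 gained it and 33 changed sign; none of those that changed sign had passed in the first place. Leaving out libraries ranged from -0.26 to 0.0069 for Gbp4 and -0.044 to 1.05 for Nlrc5 against BEC, -0.039 to 0.068 for Tap1 and -0.040 to 0.143 for Cxcl10 against T cells. In type I-index against index-negative cells it ranged from -0.16 to 0.57 for Ciita, -0.70 to 1.25 for Cxcl9, -0.12 to 0.080 for Ifnar1 and -0.17 to 0.089 for Ifngr2, and between the indices from -0.061 to 0.030 for H2-D1 and -0.076 to 0.011 for Ifnar2. Thinning gave Ifngr2 0.032 against BEC and Irf7 -0.76 against epithelium. For Tap1 against T cells DESeq2 gave -0.010 and library size without TMM -0.11, and for Cxcl10 the latter gave -0.091. The stricter LEC gate gave Cxcl10 -0.023 against T cells, Ifnar2 -0.049 and Ifngr1 -0.018 in type I-index cells and Ifngr2 -0.047 in type II-index cells. Without the cells of most UMIs Irf7 was -1.73 against epithelium, Ifngr1 -0.043 and Ifnar1 0.098 in type I-index cells, Ifngr2 -0.12 in type II-index cells and H2-K1 0.0027 between the indices. Another seed gave Irf1 8.03e-05 in type I-index and Ifngr2 -0.13 in type II-index cells, and Ifnar2 0.063 and Ifngr2 0.11 between the indices. An index share of at most 20% gave Ifngr2 0.014 in type I-index cells and Ifnar2 0.027 between the indices, one of at most 5% gave Ifngr1 -0.044, and unthinned counts gave Irf1 0.024 in type I-index cells. T cells could not be thinned, and the mural, myeloid and plasma or B comparisons were not run, because a library had under 20 cells.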

Other observations

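Genes outside the lists moved with the indices too. The ones named here were chosen after their values were seen, as the largest changes past the threshold with at least 20 CPM in a group. Against cells with neither index, 142 unlisted genes passed in type I-index LEC (112 higher, 30 lower) and 236 in type II-index LEC (156 higher, 80 lower; edgeR, Benjamini-Hochberg). In type I-index cells Oasl1, an oligoadenylate synthetase-like gene, was at 30.2 against 2.80 CPM (log2 fold change 3.46), and the Schlafen genes Slfn8 and Slfn9 were higher by 1.93 and 1.75. Selp, the adhesion receptor P-selectin, was lower at -0.73, as were the peptide genes Nts (-0.57) and Nppc (-0.49). In type II-index cells Batf2 was higher by 2.31, Gbp10 by 2.30, and Cd274, the checkpoint ligand PD-L1, stood at 151 against 33.0 CPM (2.25).

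The unlisted genes that differed between the 2 index groups included several of the MHC class II pathway. They too were chosen after their values were seen, and the other class II genes were not counted. H2-Ab1 was 73.5 CPM in type I-index and 173 in type II-index LEC (log2 fold change -1.32, edgeR adjusted p = 2.45e-13), and Cd74, the class II chaperone, 143 and 339 CPM (-1.30, adjusted p = 1.24e-17). H2-DMa (-1.52), H2-Aa (-1.24) and H2-DMb1 (-1.23) were lower in type I-index cells as well. Igkc, an immunoglobulin gene and 1 of the plasma cell markers, was higher in type I-index cells at 97.7 against 51.5 CPM (1.03).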
